A study of Mus musculus with 40 samples.

Results

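Adult neurogenesis was followed through 9 genes that mark successive steps from dividing progenitor to young neuron: *Mki67*, *Top2a*, *Eomes*, *Neurod1*, *Sox4*, *Sox11*, *Dcx*, *Tubb2b* and *Igfbpl1*. They were chosen by symbol, each was matched to 1 Ensembl identifier, and all 9 were found among the 47643 genes of the count tables. RNA-seq was performed on 2 brain regions, hippocampus and frontal cortex. The mice were wild-type, of the Swiss Webster stock, raised germ-free and then colonized with human fecal microbiota, sampled from children with epilepsy before (pre-KD) or after (post-KD) the start of a ketogenic diet. The mice themselves were fed a control diet. The stool of 10 donors at both times gave 20 cohorts of mice and 40 libraries, 10 for each region and condition. According to the methods, the mice were 6 to 8 weeks old, tissue was taken on day 4 after colonization, and each library pooled tissue of 6 mice of a cohort. The groups of a region thus differed in the time at which a donor's stool was sampled, and all mice, controls included, carried a human microbiota. Pooling reduces variation from mouse to mouse without removing it, and the libraries do not measure it.

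In the adult rodent brain, new neurons arise mainly in the dentate gyrus of the hippocampus and in the subventricular zone, from which neuroblasts travel along the rostral migratory stream to the olfactory bulb. Neural stem cells give rise to dividing progenitors, these become doublecortin-positive neuroblasts and immature neurons, and most of the genes that mark those steps are turned down as the neuron matures. Such cells are a small minority of the tissue, and in a bulk library fewer cells of a type and less RNA per cell cannot be told apart. Levels below are counts scaled to the library size (CPM) after TMM normalization, which scales libraries to a common composition. CPM are not divided by gene length, so no gene is ranked against another.

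Library totals ran from 1140756 to 1947416 counts in the hippocampus and from 1188447 to 2095352 in the frontal cortex, so a gene at 1 CPM is represented by only 1 or 2 reads. All 9 genes passed the minimum of 10 counts summed over the libraries of each test. In 8 of the 40 libraries, those of donors 9 and 10, counts of the Y-linked gene *Ddx3y* exceeded those of *Xist*, although the methods describe female mice. The tests were repeated without these libraries, and values that ended a call or turned a direction are given.

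Hippocampus and frontal cortex differed in 5 of the 9 genes. *Neurod1* and *Tubb2b* were higher in the hippocampus, and *Sox4*, *Igfbpl1* and *Eomes* were higher in the frontal cortex. The test was edgeR's quasi-likelihood test over 19422 genes with a term for each cohort, because both tissues came from the same mice, and a gene was called at a Benjamini-Hochberg adjusted p under 0.05. Over all genes tested 2.85% were called in either direction, 0.87% as higher in the hippocampus and 1.98% as lower.

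**Figure D1:**
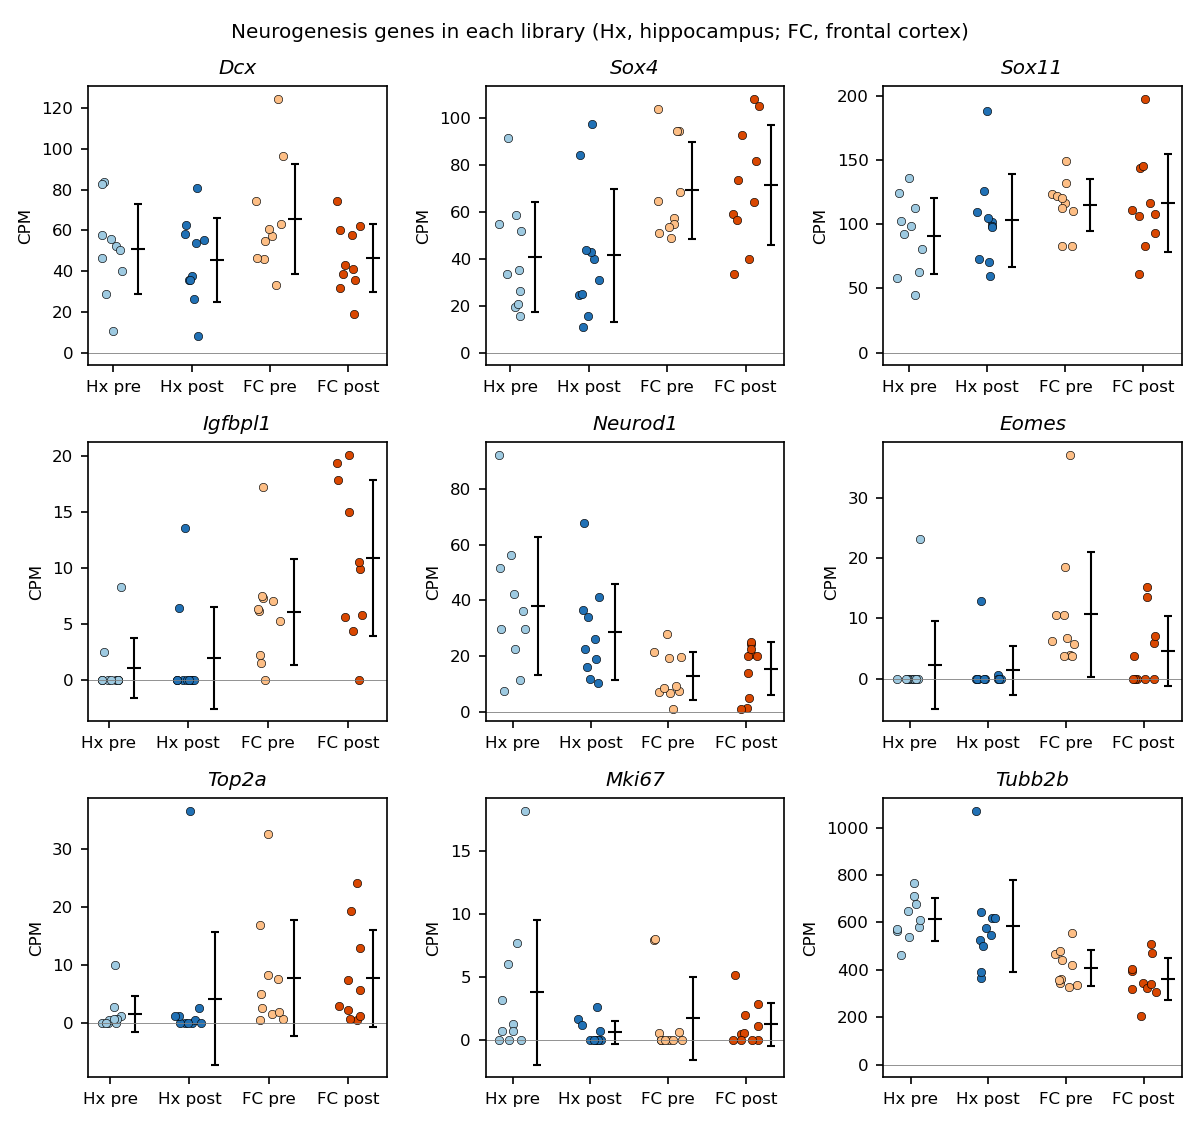
Each point is the level (CPM, linear axis) of 1 gene in 1 library, in 10 pre-KD and 10 post-KD libraries of the hippocampus (Hx) and of the frontal cortex (FC), and the black mark and bar beside each group are its mean ± SD. *Tubb2b* and *Neurod1* sit higher in the hippocampus, *Igfbpl1* and *Eomes* lie at 0 in most hippocampal libraries, and pre-KD and post-KD points overlap in every panel.

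*Neurod1* encodes a basic helix-loop-helix transcription factor that drives neuronal differentiation and is needed for granule cells of the dentate gyrus. It lies at chr2:79452521-79456751 on the minus strand (mm10). In the hippocampus its level ran from 7.65 to 92.2 CPM with a median of 33.0 in pre-KD libraries and from 10.5 to 67.6 with a median of 24.3 in post-KD libraries. Cortical levels ran from 1.12 to 28.0 CPM with a median of 8.87 in pre-KD libraries and from 1.15 to 25.2 with a median of 19.9 in post-KD libraries. The hippocampus was the higher tissue in 17 of 20 cohorts, although the 2 ranges overlap. The log2 fold change, hippocampus minus frontal cortex, was 1.37 ± 0.39 (SE, edgeR's quasi-likelihood test, adjusted p = 0.0181), and mean levels were 33.2 and 14.2 CPM. The call was lost without donor 5, 8 or 10 (log2 fold changes of 1.21, 1.26 and 1.13, edgeR adjusted p = 0.0635, 0.0559 and 0.136) and without donors 9 and 10 together (1.15, adjusted p = 0.159). Over 16 alternatives the adjusted p ran from 0.00029 to 0.159. *Neurod1* shares exonic sequence with *Cerkl* on the same strand, a gene with 111 counts over the 40 libraries against 1028 of *Neurod1* in the hippocampus alone.

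*Eomes*, also called *Tbr2*, encodes a T-box factor of intermediate progenitors and, in the olfactory bulb, of mature glutamatergic neurons. It lies at chr9:118478212-118486132 on the plus strand. In the hippocampus it had reads in only 3 of 20 libraries, 32 counts in the pre-KD library of donor 5, 20 in the post-KD library of donor 9 and 1 in the post-KD library of donor 2. In the frontal cortex its level ran from 3.69 to 37.2 CPM with a median of 6.49 in pre-KD libraries, where every library had reads, and from 0 to 15.2 with a median of 1.85 in post-KD libraries, of which 5 had none. The frontal cortex was therefore the tissue with *Eomes* reads in most cohorts, and it was the higher tissue in 14 of 20 and the lower in 2. The log2 fold change, hippocampus minus frontal cortex, was -5.06 (95% interval -9.45 to -3.63, edgeR's quasi-likelihood test, adjusted p = 0.00086), while mean levels were 1.84 and 7.63 CPM, a ratio of 4.16. Without the cohort terms the fold change shrank to -1.94 and the call was lost (edgeR adjusted p = 0.156, the highest of 16 alternatives, of which the lowest was 0.000472).

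The promoters of *Neurod1* and *Eomes*, whose levels differed in opposite directions between the tissues, are shown because their base composition and exact matches to the motifs searched are unlike. The RefSeq windows (GRCm38.p6) hold 250 bases before and 50 after the start and run 5′ to 3′ on the gene's strand, that of *Neurod1* from chr2:79456587-79456886 (minus strand) and that of *Eomes* from chr9:118477939-118478238 (plus strand). Capitals mark each match, on either strand, to 6 motifs: the E-boxes CAGCTG and CAGATG, the CCAAT box CCAAT, the TATA box TATAAA, the GC box GGGCGG and the cell cycle element known as CHR, TTTGAA.
*Neurod1* promoter: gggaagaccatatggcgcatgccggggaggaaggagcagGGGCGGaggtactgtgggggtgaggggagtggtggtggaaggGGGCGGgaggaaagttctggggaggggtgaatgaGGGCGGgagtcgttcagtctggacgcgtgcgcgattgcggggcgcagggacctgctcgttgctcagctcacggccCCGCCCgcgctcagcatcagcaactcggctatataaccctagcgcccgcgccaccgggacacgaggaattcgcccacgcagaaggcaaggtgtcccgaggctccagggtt
*Eomes* promoter: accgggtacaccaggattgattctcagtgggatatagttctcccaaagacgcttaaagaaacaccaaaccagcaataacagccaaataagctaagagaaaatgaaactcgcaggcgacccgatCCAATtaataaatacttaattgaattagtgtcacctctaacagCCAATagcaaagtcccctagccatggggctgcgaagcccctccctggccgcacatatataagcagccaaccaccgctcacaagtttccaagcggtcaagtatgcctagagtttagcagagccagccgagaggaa
The *Neurod1* window had 66.7% G or C and 4 GC boxes, and the *Eomes* window had 47.3% and 2 CCAAT boxes, against a median of 53% over the 32544 promoters of the table. Only exact matches are in capitals, and both windows also hold the TATA-like stretch tatataa in lower case. A GC box was found in 35.9% and a CCAAT box in 37.4% of all those promoters. RefSeq windows were matched for 7 of the 9 genes, and *Igfbpl1* and *Tubb2b* had none.

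*Igfbpl1* encodes an insulin-like growth factor binding protein-like protein that is expressed by neuroblasts. It lies at chr4:45809468-45826923 on the minus strand. In the hippocampus 4 of 20 libraries had reads, with 14 counts for donor 1 and 4 for donor 8 in pre-KD libraries and 17 for donor 6 and 10 for donor 9 in post-KD libraries. Of the cortical libraries 18 of 20 had reads, from 0 to 17.3 CPM with a median of 6.26 in pre-KD libraries and from 0 to 20.2 with a median of 10.3 in post-KD libraries. The frontal cortex was the higher tissue in 17 of 20 cohorts. The log2 fold change, hippocampus minus frontal cortex, was -4.77 (95% interval -8.22 to -3.27, edgeR's quasi-likelihood test, adjusted p = 0.000482), and the ratio of mean levels was 5.50. The gene was called under all 16 alternatives, with a log2 fold change between -5.19 and -2.41 and the smallest size in the fit without cohort terms.

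*Sox4* and *Sox11* encode SoxC transcription factors that switch on genes of immature neurons. *Sox4* (chr13:28948919-28953713, minus strand) ran from 10.9 to 97.1 CPM in the hippocampus with a median of 34.3, and from 33.4 to 108 CPM in the frontal cortex with a median of 64.4. The frontal cortex was higher in 16 of 20 cohorts, with a log2 fold change, hippocampus minus frontal cortex, of -0.92 ± 0.22 (SE, edgeR's quasi-likelihood test, adjusted p = 0.00224), and *Sox4* was called under all 16 alternatives. Its partner *Sox11* (chr12:27334264-27342574, minus strand) ran from 44.6 to 188 CPM in the hippocampus with a median of 98.6, and from 60.9 to 198 CPM in the frontal cortex with a median of 114. The frontal cortex was higher in 15 of 20 cohorts, but the difference was smaller, with a log2 fold change of -0.29 ± 0.15 (95% interval -0.58 to 0.00082), and was not called (edgeR, p = 0.0507, adjusted p = 0.46). Whether reads were counted by strand is not given in the sources used here, so reads of *Eomes* and *Sox4* may include antisense transcripts at these loci, although the long non-coding RNA *Gm26735* opposite *Sox4* had 0 counts.

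*Dcx* encodes doublecortin, the microtubule-associated protein by which neuroblasts and immature neurons are usually recognized. It lies at chrX:143855842-143933311 on the minus strand. Every library had *Dcx* reads, from 8.19 to 83.8 CPM in the hippocampus with a median of 51.2 and from 18.97 to 125 CPM in the frontal cortex with a median of 55.9. The 2 tissues overlapped widely, and the frontal cortex was higher in 14 of 20 cohorts. The log2 fold change, hippocampus minus frontal cortex, was -0.26 ± 0.23 (SE, 95% interval -0.71 to 0.18), which was not called (edgeR's quasi-likelihood test, p = 0.246, adjusted p = 0.766). Without donors 9 and 10 it was -0.61 (p = 0.0158, adjusted p = 0.282), and over single donors left out it ran from -0.43 without donor 10 to -0.14 without donor 2, with no adjusted p under 0.05 in 16 alternatives.

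*Tubb2b* encodes a β-tubulin isotype of developing neurons that remains expressed in the adult brain. It lies at chr13:34126748-34130466 on the minus strand. In the hippocampus it ran from 461 to 766 CPM with a median of 596 in pre-KD libraries and from 366 to 1071 with a median of 561 in post-KD libraries. Cortical levels ran from 328 to 556 CPM with a median of 392 in pre-KD libraries and from 205 to 509 with a median of 342 in post-KD libraries. The hippocampus was higher in 20 of 20 cohorts. The log2 fold change was 0.63 ± 0.08 (SE, edgeR's quasi-likelihood test, adjusted p = 1.61e-12), and *Tubb2b* was called under all 16 alternatives.

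*Tubb2b* shares long stretches of sequence with its neighbour *Tubb2a*, as the last 120 coding bases of both genes show (mm10, coding positions 1216 to 1335, differing bases in capitals).
*Tubb2b*: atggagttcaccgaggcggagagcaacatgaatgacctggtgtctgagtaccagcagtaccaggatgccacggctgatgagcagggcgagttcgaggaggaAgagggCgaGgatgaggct
*Tubb2a*: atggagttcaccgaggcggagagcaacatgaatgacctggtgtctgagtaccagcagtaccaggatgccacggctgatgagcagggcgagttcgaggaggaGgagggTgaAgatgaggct
Over the 1335 coding bases the genes differed at 47, were 96.5% identical, and shared an unbroken identical run of 551 bases. Of the 2253 stretches of 69 bases, the read length, in the *Tubb2b* transcripts, 31.6% also occurred in another gene, 636 of them in *Tubb2a*. This share is over single stretches, whereas the reads were paired and a mate outside a shared stretch can assign a pair. How reads matching both genes were counted is not given in the sources used here. *Tubb2a* was itself higher in the hippocampus in 20 of 20 cohorts, with mean levels of 385 and 269 CPM and a log2 fold change of 0.51 ± 0.09 (SE, edgeR's quasi-likelihood test, adjusted p = 7.46e-06), so both paralogs differed in the same direction. Shared stretches made up 5.04% in *Neurod1* and under 1% or none in the other 7 genes.

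*Mki67* and *Top2a* are proliferation genes: *Mki67* encodes the Ki-67 protein of dividing cells, and *Top2a* encodes the DNA topoisomerase that untangles chromosomes in mitosis. *Top2a* (chr11:98992943-99024189, minus strand) had reads in all 20 libraries of the frontal cortex and in 11 of 20 of the hippocampus, with ranges of 0.498 to 32.5 and 0 to 36.6 CPM and medians of 3.94 and 0.587. The frontal cortex was higher in 16 of 20 cohorts, and the log2 fold change of -2.65 (95% interval -4.90 to -0.93) did not pass the adjusted threshold (edgeR, p = 0.004, adjusted p = 0.109). With DESeq2 it did (-2.64, adjusted p = 0.000964), and over 16 alternatives the adjusted p ran from that value to 0.249. *Mki67* (chr7:135689784-135716361, minus strand) had reads in 11 hippocampal and 10 cortical libraries, never above 18.2 CPM, and its log2 fold change of 0.72 had an interval from -2.61 to 4.78.

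Their RefSeq promoter windows are shown because both hold the pair of motifs, CCAAT and CHR, that is common in genes of late cell cycle phases. The pair was not limited to them, as the *Sox11* window also held 1 match of each. The *Top2a* and *Mki67* windows lie on chr11:99024140-99024439 and chr7:135716330-135716629 (both minus strand, GRCm38.p6, capitals as above).
*Top2a* promoter: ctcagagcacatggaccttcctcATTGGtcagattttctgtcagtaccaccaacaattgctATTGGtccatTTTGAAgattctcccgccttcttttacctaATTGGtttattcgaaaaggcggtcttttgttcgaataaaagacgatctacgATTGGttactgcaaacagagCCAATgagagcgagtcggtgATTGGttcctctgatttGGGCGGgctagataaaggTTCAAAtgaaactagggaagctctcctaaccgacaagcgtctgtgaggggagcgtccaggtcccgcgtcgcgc
*Mki67* promoter: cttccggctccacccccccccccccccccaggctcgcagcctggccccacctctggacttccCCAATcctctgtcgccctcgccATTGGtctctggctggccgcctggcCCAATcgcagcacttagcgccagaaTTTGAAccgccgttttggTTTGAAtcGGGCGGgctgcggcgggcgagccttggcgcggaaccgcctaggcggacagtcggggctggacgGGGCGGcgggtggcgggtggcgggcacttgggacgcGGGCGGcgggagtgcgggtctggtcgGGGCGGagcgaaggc
The *Top2a* window held 6 CCAAT boxes and 2 CHR matches, and the *Mki67* window held 3 and 2. Of all promoters 37.4% held the first motif and 17.8% the second. Levels of these proliferation genes showed no detectable relation across the 20 libraries of either tissue. In the hippocampus r was 0.028 (permutation p = 0.91) and rho 0.069 (p = 0.771), in the frontal cortex r was -0.060 (permutation p = 0.803) and rho -0.0072 (p = 0.977), with adjusted p from 0.937 to 0.981 over the 72 correlations below. Without the 2 libraries farthest from the median of *Top2a* r was -0.083 and 0.048.

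The hippocampal reads of the 4 sparsest genes came from few libraries. There *Eomes* was without a count in 17 of 20 libraries, where Poisson sampling of its mean at the depth of each library gives 1.51, and *Igfbpl1* in 16 against 2.21. *Top2a* and *Mki67* each had no count in 9 hippocampal libraries, against 0.467 and 0.71. A single library held 60.4% of all hippocampal *Eomes* counts, 56.4% of *Top2a*, 39.1% of *Mki67* and 37.8% of *Igfbpl1*. In the frontal cortex reads were spread more widely, with *Mki67* at 0 in 10 libraries against 1.84, *Eomes* in 5, *Igfbpl1* in 2 and *Top2a* in none, and no library held over 30.6% of a gene's counts. Such zeros were not limited to the 9 genes. Hippocampal *Cdhr1*, an olfactory bulb marker, had 29 counts in the pre-KD library of donor 7 and 0 in those of donors 4, 5, 6, 8, 9 and 10. The share of other genes of like level with such zeros is not given.

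**Figure D2:**
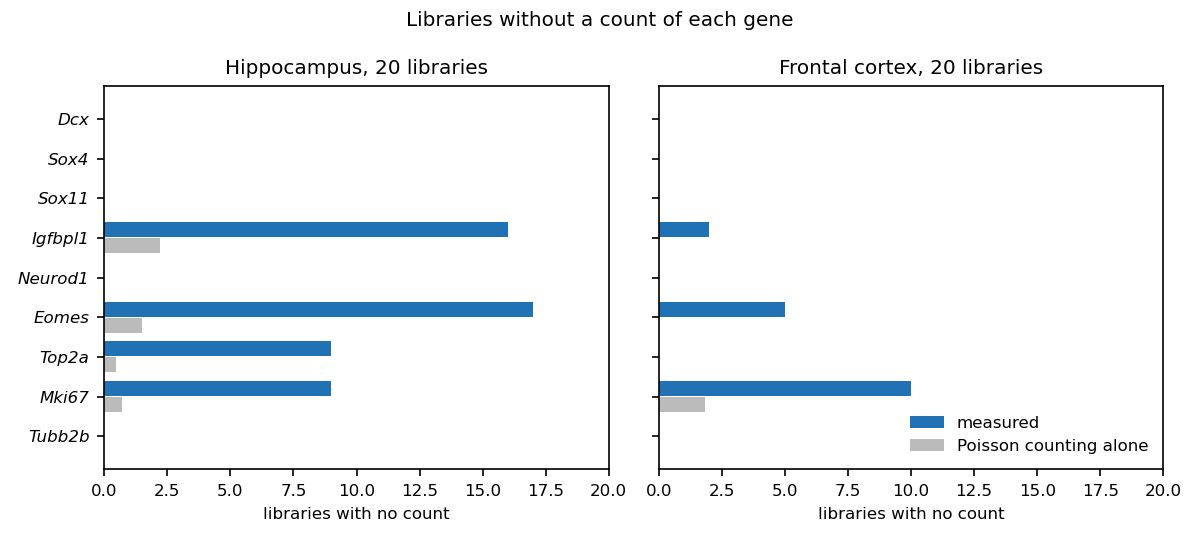
Bars count the libraries of each tissue, of 20, without a read of each gene (blue), beside the number that Poisson counting of the gene's mean at each library's depth gives (grey). Zeros occur only in *Igfbpl1*, *Eomes*, *Top2a* and *Mki67* and exceed the grey bar wherever they occur, and the hippocampal *Eomes* bar reaches 17 against 1.51.

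Post-KD and pre-KD libraries were then compared, the contrast the study was built on, to ask whether these genes differed with the stool given. None of the 9 was called in either tissue by edgeR's quasi-likelihood test at an adjusted p under 0.05, where 0.0057% of 17529 genes were called in the hippocampus and 0.0056% of 17873 in the frontal cortex. At an unadjusted p under 0.05, a threshold the study used, 0 of 9 passed in the hippocampus, against 10.1% of all genes, and 1 of 9, *Dcx*, in the frontal cortex, against 9.68%. DESeq2 also called none, with 0 and 1 at the unadjusted threshold, against its own 3.42% and 4.62% of all genes. In both tissues 4 genes were higher and 5 lower post-KD, and their median log2 fold changes of -0.064 and -0.017 lay beside -0.0076 and 0.0087 over all genes tested.

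In the frontal cortex *Dcx* ran from 33.1 to 125 CPM with a median of 59.1 in pre-KD libraries and from 18.97 to 74.2 with a median of 42.1 in post-KD libraries. The groups overlapped over most of their range, and the post-KD library was the lower one in 8 of 10 donors. Mean levels were 65.7 ± 26.9 and 46.3 ± 16.7 CPM (SD, n = 10 each), with a log2 fold change of -0.50 ± 0.24 (SE, 95% interval -0.97 to -0.029) that did not pass (edgeR, p = 0.0377, adjusted p = 0.446). Without donor 8, whose pre-KD library was the highest of all, the fold change was -0.32 (p = 0.201), and without donor 1, 7 or 9 the p also exceeded 0.05 (0.0619, 0.0554 and 0.0579), as it did with voom (-0.42, p = 0.0851). In the hippocampus *Dcx* ran from 10.8 to 83.8 CPM pre-KD and from 8.19 to 80.9 post-KD, was lower post-KD in 7 of 10 donors, with a fold change on the log2 scale of -0.16 ± 0.34 (SE, edgeR adjusted p = 0.9998). Whether the change in *Dcx* differed between the tissues was tested directly, with a difference of 0.33 ± 0.46 (SE, edgeR, p = 0.468, adjusted p = 1) that ran from 0.039 without donor 7 to 0.57 without donor 5. In that test of the difference between tissues no gene of the 9 was called or passed an unadjusted p of 0.05, against 0.0154% (0.00515% higher and 0.0103% lower) and 2.22% of 19422 genes.

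The intervals of the other genes with reads in every library spanned 0, and that of *Tubb2b* was the narrowest. The log2 fold change of *Tubb2b* was -0.064 (95% interval -0.33 to 0.20) in the hippocampus and -0.18 (-0.42 to 0.059) in the frontal cortex. That of *Sox11* was 0.18 (-0.28 to 0.63) and 0.015 (-0.31 to 0.34), and that of *Sox4* was 0.028 (-0.72 to 0.77) and 0.048 (-0.37 to 0.47). For *Neurod1* it was -0.40 (-1.24 to 0.43) in the hippocampus and 0.27 (-0.78 to 1.32) in the frontal cortex, the first ranging from -0.76 without donor 4 to -0.081 without donor 7. Without donors 9 and 10 the hippocampal fold changes of *Sox4* and *Sox11* turned to -0.57 and -0.14, and the post-KD library of donor 9 was the highest hippocampal library for both genes (97.1 and 188 CPM). A missed threshold does not show that levels were equal, and the intervals give the sizes that remain possible.

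The sparse genes allowed no such precision. *Mki67* in the hippocampus had reads in 7 of 10 pre-KD libraries, up to 18.2 CPM, and in 4 of 10 post-KD libraries, up to 2.58 CPM. Totals were 60 and 9 counts, 27 of them from the pre-KD library of donor 7, with a log2 fold change of -2.48 (95% interval -5.69 to 0.42, edgeR, p = 0.0903, adjusted p = 0.687). Without donor 7 it was -1.56. *Top2a* had a fold change of the opposite sign, 1.36 on the log2 scale, but 44 of its 53 post-KD counts in the hippocampus came from donor 3, and without that donor the value was -1.35. *Eomes* in the frontal cortex had 165 counts in pre-KD and 76 in post-KD libraries and was lower post-KD in 6 of 10 donors, and its log2 fold change was -1.22 (-2.82 to 0.35, edgeR, p = 0.125, adjusted p = 0.77). The pre-KD library of donor 1 held 48 of the 165 counts, and without that donor the value was -0.61 (p = 0.467). It was -2.16 with the donor as a block (p = 0.0445, adjusted p = 1) and -1.97 with voom (p = 0.0155, adjusted p = 0.77). *Igfbpl1* in the frontal cortex had 96 and 193 counts, with a log2 fold change of 0.84 (-0.53 to 2.22). Its hippocampal fold change, and that of *Eomes*, rested on 4 and 3 libraries with reads.

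**Figure D3:**
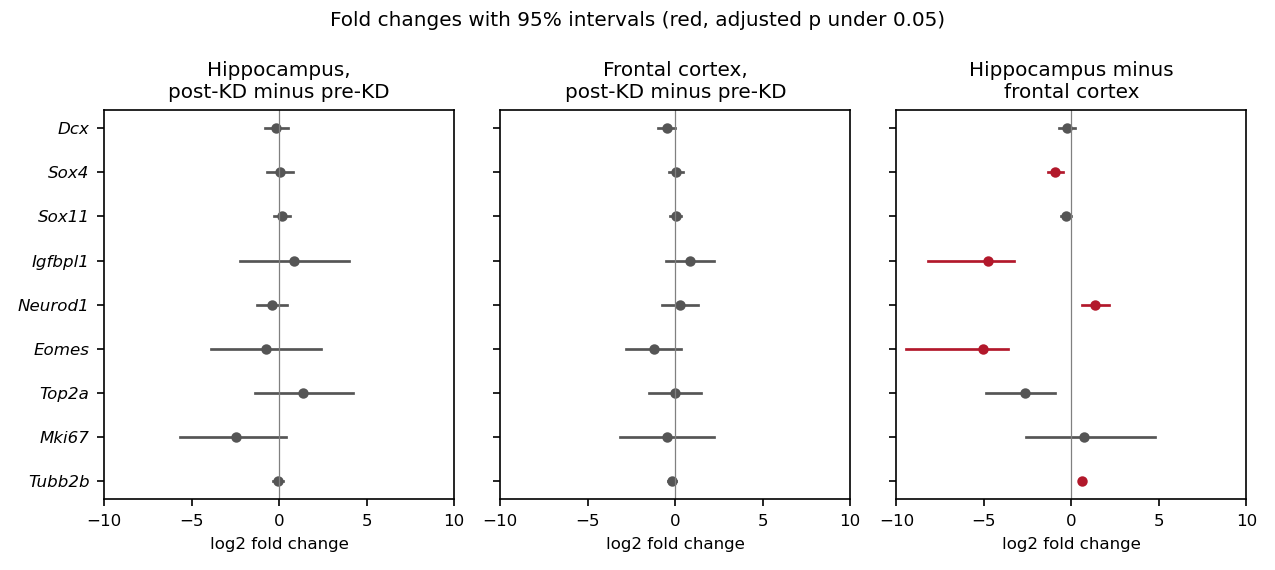
Points are log2 fold changes and lines their 95% intervals, for post-KD minus pre-KD in hippocampus (left) and frontal cortex (middle) and for hippocampus minus frontal cortex (right, 20 cohorts), with red for an adjusted p under 0.05. All post-KD intervals but that of *Dcx* in the frontal cortex span 0, and the 5 red genes in the right panel lie on both sides of 0.

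Levels of the 9 genes showed no correlation that passed an adjusted test. Of 72 correlations of log2 CPM (36 pairs in each tissue, 20 libraries) 38 were positive, the median r was 0.042, and none passed an adjusted permutation p of 0.05 by Pearson's r or Spearman's rho, while 7 had an unadjusted p under 0.05 by Pearson's r. *Igfbpl1* and *Eomes* in the frontal cortex had the smallest p (r = -0.60, permutation p = 0.00468, adjusted p = 0.294, rho = -0.40, p = 0.0817, adjusted p = 0.569, r = -0.43 without 2 libraries). *Sox4* and *Eomes* in the hippocampus followed (r = 0.55, p = 0.00816, adjusted p = 0.294, rho = 0.36, p = 0.125, adjusted p = 0.617, r = 0.44 without 2 libraries), a pair in which only 3 libraries had *Eomes* reads. For *Dcx* and *Tubb2b* in the hippocampus r of -0.46 (permutation p = 0.0465, adjusted p = 0.48, rho = -0.24, p = 0.311) became 0.0012 without 2 libraries. With the total count of the library the 9 genes had r between -0.43 and 0.33, given as a description. With summed markers of dentate granule cells, olfactory bulb, striatum and choroid plexus r was also not tested. It ran from -0.48 (cortical *Mki67*, choroid plexus) to 0.62 (hippocampal *Sox11*, olfactory bulb).

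A cohort that was high in the hippocampus was not detectably high in the frontal cortex. Over 20 cohorts r between hippocampus and frontal cortex ran from -0.27 for *Dcx* (permutation p = 0.246, rho = -0.34, p = 0.141) to 0.41 for *Tubb2b* (p = 0.0765, adjusted p = 0.344, rho = 0.32, p = 0.165), and none of the 9 had an unadjusted p under 0.05. Without 2 libraries these became -0.30 and 0.29.

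**Figure D4:**
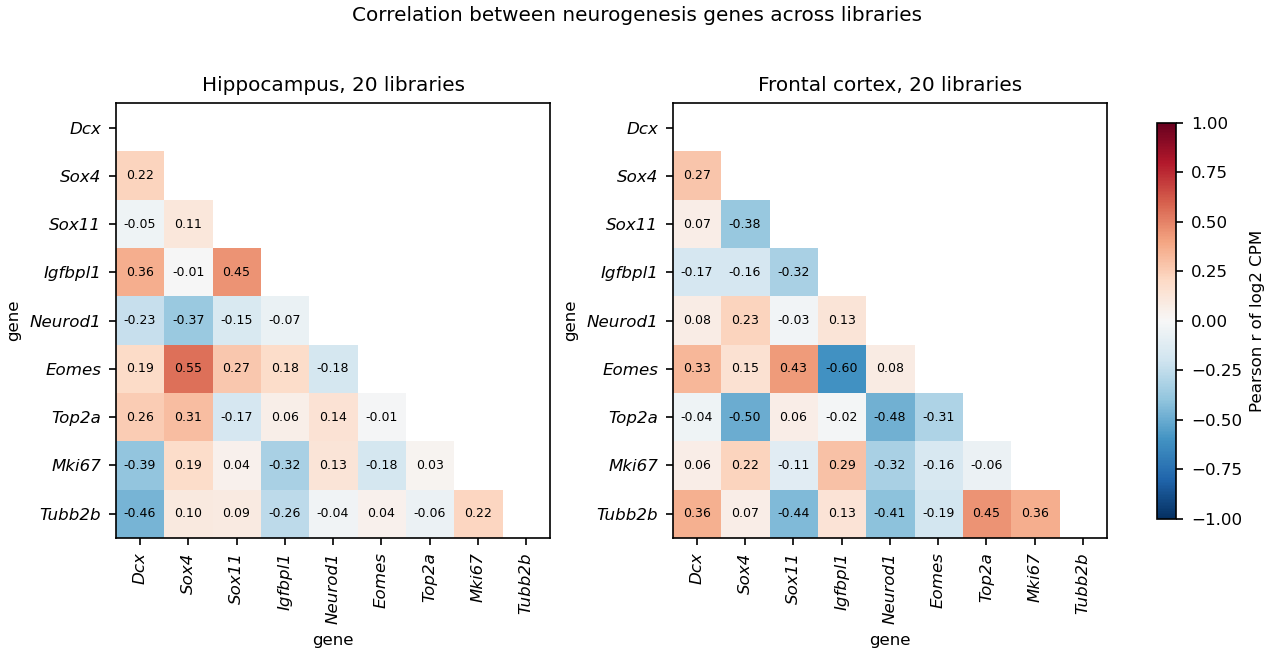
Cells give Pearson's r between the log2 CPM of 2 genes over the 20 libraries of the hippocampus (left) and of the frontal cortex (right), coloured from blue (-1) to red (1). Positive and negative cells are mixed in both tissues, from -0.60 (*Igfbpl1* with *Eomes*, frontal cortex) to 0.55 (*Sox4* with *Eomes*, hippocampus).

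Among all genes averaging at least 20 counts per library, 8015 in the hippocampus, the gene whose pattern was most like *Sox11* was *Calb2*, which encodes calretinin, a calcium-binding protein of immature granule neurons and of interneurons (r = 0.82, rho = 0.66, r = 0.70 without 2 libraries). The closest to *Dcx* was *Syngr1*, a synaptic vesicle gene (r = 0.81, falling to 0.52 without 2 libraries), and the closest to *Sox4* was *Spry2*, an inhibitor of growth factor signalling (r = 0.71). In the frontal cortex, among 8254 genes, the closest to *Sox4* were *Pgls* (r = 0.73), *Alkbh5* (0.68) and *Dlx1* (0.68), a homeobox factor of interneurons and their progenitors, and the closest to *Sox11* were *Fn3k* (0.74), *Sox8* (0.72) and *Sesn1* (0.72, falling to 0.39 without 2 libraries). The closest to *Dcx* there was *Chd2* (r = 0.77). These are the highest of all values computed in libraries that share depth and composition, and no p is given.

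Other genes of the neurogenic programme were read in lists of stem cell genes, cell cycle genes, progenitor factors and immature neuron genes. Between tissues, 4 of 14 tested progenitor factors were higher in the hippocampus and none lower by edgeR's quasi-likelihood test, against 0.87% and 1.98% of all genes. They were *Prox1*, the factor that specifies dentate granule cells (81.1 against 21.3 CPM, log2 fold change 2.01, adjusted p = 9.55e-15), *Bhlhe22* (1.99), *Neurod6* (1.09) and *Neurod2* (0.91). The last 3 encode basic helix-loop-helix factors that stay on in mature excitatory neurons. Of 30 immature neuron genes 4 were higher, among them the imprinted gene *Nnat* (1.46), and 4 lower, among them the growth cone gene *Gap43* (-0.41) and the *Dcx* relative *Dclk1* (-0.40). Of 19 stem cell genes 1 was called, *Hopx* (1.75), and of 25 cell cycle genes none was, with 3 at an unadjusted p under 0.05, against 10.9% of all genes. The medians of the 4 lists were 0.52, -0.019, 0.034 and -0.69 in the order progenitor factors, immature neuron, stem cell and cell cycle, beside -0.17 over all genes.

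Between post-KD and pre-KD libraries none of these list genes was called in either tissue by edgeR. At an unadjusted p under 0.05 the hippocampus had 2 of 23 cell cycle genes, 2 of 14 progenitor factors, 1 of 30 immature neuron genes and 0 of 18 stem cell genes, against 10.1% of all genes. The frontal cortex had 1 higher and 3 lower of 23 cell cycle genes, 2 of 30 immature neuron genes and none of the other lists, against 9.68%. The hippocampal genes under that threshold included *Prox1*, at 97.0 ± 26.4 CPM pre-KD and 65.3 ± 23.0 post-KD (SD, n = 10 each), a log2 fold change of -0.57 ± 0.25 (SE, edgeR adjusted p = 0.324) and a lower post-KD level in 9 of 10 donors. Of the 10 dentate granule markers, *Prox1* among them, 7 had a higher post-KD value in the hippocampus, and the median log2 fold change was 0.33. *Tdo2*, with 8 counts pre-KD and 79 post-KD, reached the minimum through its post-KD libraries alone. *Calb2* had hippocampal and cortical log2 fold changes of opposite sign, 0.76 ± 0.34 and -0.64 ± 0.30 (SE, edgeR adjusted p = 0.338 and 0.437), and the test of their difference did not pass (1.41 ± 0.50, p = 0.00495, adjusted p = 1). Without donors 9 and 10 these *Calb2* values were 0.21 and -0.41 (adjusted p = 0.99986 and 0.891). The cell cycle gene *Ube2c*, which encodes a ubiquitin-conjugating enzyme of mitosis, had 43 counts in pre-KD and 1 in post-KD libraries of the frontal cortex, so it reached the minimum of 10 counts through the pre-KD libraries alone and no p is given. It is among the 3 lower genes counted above.

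Markers of neighbouring structures moved with the difference between tissues, and their part in the results above was not tested. As a description, r across cortical libraries with the summed olfactory bulb and striatal markers was 0.22 and 0.012 for *Sox4*. It was -0.28 and 0.14 for *Igfbpl1* and 0.090 and -0.15 for *Eomes*. The counts of called markers below stand against the 0.87% higher and 1.98% lower of all genes. Of 6 tested striatal markers 6 were lower in the hippocampus, and the sum of the list ran from 48.7 to 287 CPM there and from 450 to 1016 CPM in the frontal cortex. A further striatal gene, *Drd2*, was too sparse to test, with 0 hippocampal counts and 5 cortical ones, from 2 of 20 libraries. Post-KD minus pre-KD, all 6 tested markers had negative log2 fold changes in the hippocampus (median -0.55), with *Ppp1r1b*, the DARPP-32 gene, at 77.1 ± 26.7 and 49.8 ± 25.0 CPM (SD, n = 10 each, edgeR p = 0.0322, adjusted p = 0.379), and the sum ran from 105 to 287 CPM pre-KD and from 48.7 to 206 post-KD. In the frontal cortex 4 values were positive and 2 negative (median 0.081), and in the difference between tissues all 6 were negative, 3 of them at an unadjusted p under 0.05, against 2.22% of all genes, and none called. The 6 olfactory bulb markers summed to 0 to 37.5 CPM in the hippocampus and 5.30 to 104 CPM in the frontal cortex, and 2 were called lower in the hippocampus, *Th* and *Tbx21*. *Tbx21*, a gene of mitral and tufted cells of the bulb, had no read in the hippocampus and reached a mean of 2.30 CPM in the frontal cortex. It thus passed the minimum of 10 counts through cortical libraries alone, and its call is not read as support. Of 7 choroid plexus markers 4 were higher in the hippocampus, among them *Ttr*, the transthyretin gene (log2 fold change 4.13), and the list summed to 496 to 4363 CPM there against 7.91 to 599 CPM. Of 10 dentate granule markers 3 were called higher in the hippocampus (*Prox1*, *C1ql2* and *Dsp*) and 1 lower (*Pdzd2*), and of 7 markers of CA pyramidal cells 2 were higher. None of the oligodendrocyte lineage, microglial or ependymal markers was called. The 5 endothelial markers were not called either, but all had negative log2 fold changes (median -0.59), and 3 of them, *Flt1*, *Pecam1* and *Ly6c1*, had an unadjusted p under 0.05 (edgeR adjusted p = 0.13, 0.282 and 0.42), against 10.9% of all genes. The sum of that list ran from 35.7 to 165 CPM in the hippocampus and from 91.4 to 249 CPM in the frontal cortex.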

How the data were processed

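RNA-seq was read from hippocampal and frontal cortical tissue of 20 cohorts of colonized mice. The authors deposited unnormalized read counts per gene, 1 table per tissue with 20 libraries each, made with STAR 2.5.2a on mm10 and HTSeq 0.6.0 according to the methods. The labels and methods name a TruSeq RNA library kit and the study's list of materials a QuantSeq FWD kit, which reads transcript ends by strand. Which was used bears on antisense reads and on the share of *Tubb2b* stretches, computed here over whole transcripts. Strand, treatment of multiply mapped reads and the gene annotation are not given in the sources used here. Samples were grouped by tissue and treatment label. Totals ran from 1140756 to 2095352 counts per library, Poisson numbers cover counting error only, and p-values measure the spread between cohorts.

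Of 47643 identifiers 47224 were matched to GENCODE M21. Counts were tested with edgeR 4.0.16 (R 4.3.3), with TMM normalization, the quasi-likelihood test and Benjamini-Hochberg adjustment over all genes with at least 10 counts summed over a fit. Post-KD and pre-KD libraries were compared within each tissue without covariates. The 2 tissues, and their difference in post-KD change, were compared with a term for each of the 20 cohorts. Intervals are at 95%, log2 CPM used a prior count of 2, and correlations were tested with 100000 permutations (scipy 1.17.1, numpy 2.4.6, pandas 2.3.3, Python 3.11.15). Plots were drawn with matplotlib 3.10.9. The procedures were tested on simulated data.

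Alternatives were DESeq2 1.42.0, its size factors (RLE) in edgeR, no filter, edgeR's filterByExpr, limma 3.58.1 voom with quality weights, donors 1 to 5 against 6 to 10 as a covariate, the donor as a block, no cohort terms, each donor left out in turn, a prior count of 0.5, CPM without TMM, correlations within each condition and, chosen after seeing the data, leaving out donors 9 and 10. Same-donor libraries did not detectably deviate together (r from -0.028 to 0.030 in the hippocampus and -0.056 to 0.032 in the frontal cortex over 10 pairs each), and tissues of a cohort, which come from the same mice, had r from -0.036 to 0.25. The check can therefore miss a true pairing.

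The 9 genes and all lists were chosen with earlier results of these data known. Beside the 9 genes and *Tubb2a*, the text draws on up to 4 genes per list and comparison with the smallest p under 0.05 and the 3 genes most correlated with each of the 9 that averaged 20 counts. *Drd2* was named after its values were seen. Promoters were taken from RefSeq (GRCm38.p6).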

Additional observations from a re-analysis of the deposited data

Results flagged for a closer look

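In 12 of the 36 groups of 10 libraries (9 genes in 2 tissues and 2 conditions) the highest library stood apart from the rest by Dixon's test at the 95% level, which chance does in about 1 group in 20 for normally distributed values, a rate that need not hold for sparse counts. Of these 12, 10 belonged to the 4 sparse genes.

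*Eomes* stood apart in the pre-KD hippocampus of donor 5 (23.2 CPM, the other 9 at 0), in the post-KD hippocampus of donor 9 (12.9 CPM, the others at most 0.596) and in the pre-KD frontal cortex of donor 1 (37.2 CPM, the others from 3.69 to 18.5). *Igfbpl1* stood apart in the pre-KD hippocampus of donor 1 (8.30 CPM), the post-KD hippocampus of donor 6 (13.6 CPM) and the pre-KD frontal cortex of donor 9 (17.3 CPM, the others at most 7.49 with a median of 6.19). For *Top2a* the libraries were the pre-KD hippocampus of donor 8 (9.93 CPM), the post-KD hippocampus of donor 3 (36.6 CPM from 44 counts, the others at most 2.58) and the pre-KD frontal cortex of donor 10 (32.5 CPM). *Mki67* reached 18.2 CPM in the pre-KD hippocampus of donor 7, where the others reached at most 7.66.

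Among the genes with reads in every library, *Sox11* reached 188 CPM in the post-KD hippocampus of donor 9, where the other libraries ran from 59.8 to 126 CPM. *Tubb2b* reached 1071 CPM in the post-KD hippocampus of donor 5, where the others ran from 366 to 645 CPM, and the same library had the lowest hippocampal *Dcx* (8.19 CPM). The cause was not tested.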

How the results depend on the processing

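No gene of the 9 was called post-KD against pre-KD, or in the difference between tissues, under any alternative run, and the number called between tissues was 4 to 6 against 5, gaining *Top2a* with DESeq2 and losing *Neurod1* or *Eomes* as described. Of all genes 5.32% were called with DESeq2, 9.96% without cohort terms and 2.48% without donors 9 and 10, against 2.85%. Directions between tissues did not reverse. With the donor as a block, 2 genes instead of 1 had an unadjusted p under 0.05 in the frontal cortex (3.07% of all genes against 9.68%), and without donors 9 and 10, 1 instead of 0 did in the hippocampus (*Eomes*, -4.22, p = 0.0229, 10.4% of all genes). Leaving out single donors gave 0 to 1 in the hippocampus (1 without donor 5 or 9) and 0 to 1 in the frontal cortex (0 without donor 7, 8 or 9).

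Of the log2 fold changes post-KD minus pre-KD, none of them called, several reversed. In the hippocampus *Sox4* became -0.094 with the donor group covariate, -0.058 with the donor block and -0.57 without donors 9 and 10, *Sox11* -0.14 without donors 9 and 10, *Igfbpl1* -0.40 with the donor group covariate and *Neurod1* 0.056 with voom. There *Eomes* became 0.42 with DESeq2, 0.75 with voom and 0.54 with the donor block, and *Top2a* -1.41 with DESeq2 and -0.51 with the block. In the frontal cortex *Sox4* became -0.039 without donors 9 and 10, *Sox11* -0.046 with voom and -0.028 with the block, *Neurod1* -0.16 with voom, *Top2a* 0.23 with the donor group covariate and 0.70 without donors 9 and 10, and *Mki67* 0.46 with voom, 0.69 with the block and 0.36 without donors 9 and 10. In the difference between tissues *Sox11* became -0.12, *Top2a* -0.85 and *Tubb2b* -0.018 without donors 9 and 10. The cause was not tested.

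Over single donors left out, hippocampal fold changes ran from -0.26 to 0.28 for *Sox4*, -0.042 to 0.32 for *Sox11*, -0.67 to 2.69 for *Igfbpl1*, -4.14 to 4.31 for *Eomes*, -1.35 to 2.65 for *Top2a*, -0.21 to 0.021 for *Tubb2b*, -0.76 to -0.081 for *Neurod1*, -0.32 to -0.049 for *Dcx* and -3.16 to -1.56 for *Mki67*. Cortical ones ran from -0.076 to 0.20 for *Sox4*, -0.097 to 0.083 for *Sox11*, -0.54 to 0.66 for *Top2a*, -0.85 to 0.37 for *Mki67*, 0.10 to 0.42 for *Neurod1*, -1.71 to -0.61 for *Eomes* and -0.26 to -0.11 for *Tubb2b*. Hippocampus minus frontal cortex ran from 0.18 to 1.45 for *Mki67*. The difference between tissues ran from -0.27 to 0.23 for *Sox4*, -1.49 to 0.76 for *Igfbpl1* -0.42 to 1.25 for *Top2a*, 0.039 to 0.57 for *Dcx* and -0.79 to -0.18 for *Neurod1*.

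Over all genes, no filter raised the hippocampal calls from 1 to 1291, none of the 9 among them, and the difference between tissues went from 3 calls to 348 without cohort terms. The check on deviations found no pairing by donor number but cannot exclude one. Among tissues of the same mice it gave only 1 of 20 pairs an r above 0.1. With filterByExpr *Igfbpl1*, *Eomes*, *Top2a* and *Mki67* were not tested in the hippocampus. No pair of genes passed an adjusted p under any correlation setting. The 4 sparse genes averaged below 20 counts per library, and in the hippocampus their libraries without a read outnumbered what Poisson counting gives.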

Other observations

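Markers of other hippocampal and glial cells were read in the same post-KD against pre-KD tests, and none was called by edgeR's quasi-likelihood test. *Gpr17*, a receptor of oligodendrocyte progenitors that are about to differentiate, averaged 20.1 ± 16.4 CPM pre-KD and 6.47 ± 5.26 CPM post-KD in hippocampal libraries (SD, n = 10 each), with a log2 fold change of -1.62 ± 0.77 (SE, edgeR adjusted p = 0.408). *Olig1*, a factor of the same lineage, had -0.70 ± 0.33 (SE, adjusted p = 0.392), and these were 2 of 8 markers of that lineage at an unadjusted p under 0.05, both lower post-KD, against 10.1% of all genes. *Pou3f1*, a POU-domain factor used here as a marker of CA pyramidal cells, was at 76.3 ± 35.5 and 121 ± 44.8 CPM in the hippocampus (log2 fold change 0.67 ± 0.24, SE, edgeR adjusted p = 0.0876) and at 80.9 ± 28.1 and 107 ± 43.1 CPM in the frontal cortex (0.40 ± 0.20, adjusted p = 0.5). The synaptic gene *Nptx1* was at 129 ± 25.6 and 176 ± 37.5 CPM in the frontal cortex (0.44 ± 0.15, edgeR adjusted p = 0.122). Of the 7 CA pyramidal markers in the hippocampus 5 had a higher and 2 a lower post-KD value, with a median log2 fold change of 0.28. Mean levels of *Pou3f1* were close in the 2 tissues, at 98.8 CPM in the hippocampus and 93.9 CPM in the frontal cortex. In the frontal cortex 3 of the 7 markers had a higher and 4 a lower post-KD value, with a median log2 fold change of -0.13. One of the 4, *Iyd*, had 15 counts pre-KD and 1 post-KD and reached the minimum of 10 through the pre-KD libraries alone.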
